A study of Mus musculus with 2 samples.

Results

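Glucose metabolism genes were followed in primary hepatocytes of C57Bl6 mice: 40 genes of glycolysis, gluconeogenesis, glycogen and lactate transport. They were chosen by symbol from pathway membership, with earlier results of these data known. All 40 were found among the 36808 genes of the deposited table. The series compared global RNA expression by RNA sequencing in 2 cultures, one given 1 µM GW3965, an agonist of the liver X receptors (LXR), and one given the solvent DMSO as control. Both cultures were isolated liver cells kept in William E medium with serum (FBS), insulin and dexamethasone, so that the control cells also received both hormones. Each group had 1 library, no animal number, pooling or culture time is given in the labels, and differences between the groups have no replicate check.

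Glycolysis splits glucose to pyruvate in the cytosol, and lactate dehydrogenase then exchanges pyruvate and lactate. Liver runs the same path backwards in fasting through a small set of gluconeogenic enzymes and is also the main glycogen store that releases glucose to blood. Hepatocytes carry their own isoforms at many of these steps (liver pyruvate kinase, GLUT2, glycogen synthase 2), whereas fetal liver, dividing cells and most other tissues use other genes for the same reactions. Many glycolytic genes are classical targets of the hypoxia-inducible factors (HIF), and several liver genes of sugar use are targets of ChREBP, the glucose-sensing transcription factor encoded by Mlxipl. LXR, insulin and glucocorticoids are all known to act on hepatic glucose genes.

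Levels are given as FPKM, fragments scaled to transcript length and to the size of the library, so that genes can be set side by side. A difference is given as the ratio of GW3965 to DMSO, or as the log2 ratio of (FPKM + 1). The p-values come from the authors' deposited table, and the 95% intervals of a fold were derived here from its test statistic. Both cover the authors' noise model for these libraries, not the spread between cultures. Spacing of the lowest FPKM values gave an estimated depth of 64500000 fragments in DMSO and 80100000 in GW3965. Known LXR targets separated the libraries as labelled: Abca1, a cholesterol exporter, was at 14.6 FPKM in DMSO and at 81.1 in GW3965, Scd1, a desaturase, at 206 and 980, and Srebf1, a lipogenic regulator, at 37.6 and 100.4. Hepatocyte markers were high for albumin (7244 FPKM in DMSO, with a failed estimate in GW3965), Apoa1 (598 and 660), Apob (244 and 248), Ttr (205 and 189) and Serpina1a (138 and 99.9), with the liver transcription factor gene Hnf4a at 49.4 and 37.5. The metabolic markers on the list were low, with Cyp2e1 at 6.53 and 6.90 FPKM, Cps1 at 1.497 and 2.098 and Tat at 0.962 and 0.447.

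A minimum FPKM of 1, in at least 1 library, was reached by 35 of the 40 genes. The other 5 were Pck1, G6pc, Slc2a2, Gys2 and Pfkfb4. In the GW3965 library, genes of the glycolytic chain from glucose entry to lactate export were mostly about 1.2- to 1.4-fold higher. The gluconeogenic genes at the minimum lay within 1.2-fold, as did 86.2% of all genes at the minimum. Of the 35, 15 were higher by 1.2-fold or more, against 6.09% of all 11796 genes at the minimum FPKM, and 1 was lower by as much, against 7.71%. At 1.5-fold, 1 gene was higher, against 1.02% of all genes, and none was lower, against 1.33%. The median log2 ratio of the 35 was 0.13, beside 0.01 for all genes. Summed over the 40 genes, the level was 5583 FPKM in DMSO and 6830 in GW3965, a ratio of 1.22.

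Single-gene differences were small relative to the error in the authors' table. The standard error of a log2 fold ranged from 0.180 to 0.769 among these genes, with a median of 0.3003 over the 35. The authors called none of the 38 that they tested, against 0.285% of all 15090 genes tested, and the lowest q among them was 0.679. Without adjustment, 4 of the 38 (Slc16a3, Slc2a1, Hk1 and G6pc) had p under 0.05, against 3.34% of all genes tested. The 15 higher genes are therefore described by size only. Of the 40 genes, 19 share a locus with another annotated gene, and among the 17 at the minimum FPKM that are alone in theirs, 8 were higher by 1.2-fold or more and 0 by 1.5-fold.

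**Figure D1:**
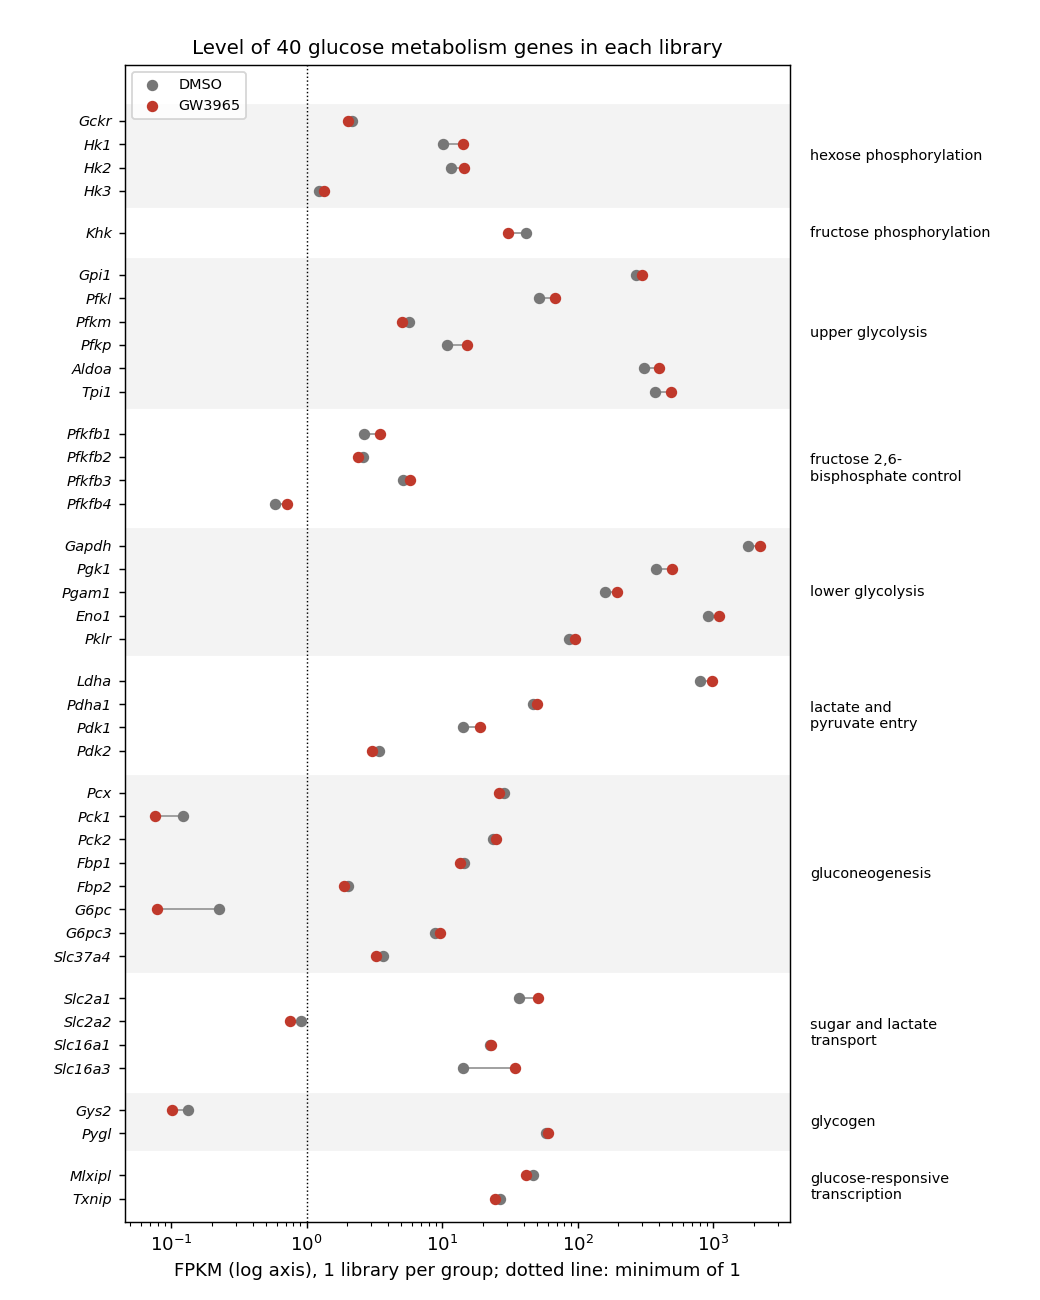
FPKM of each of the 40 genes in the DMSO and GW3965 libraries on a log axis, grouped by role; each point is 1 library and the dotted line is the minimum of 1. Slc16a3 has the widest gap among genes above the minimum (14.3 and 34.3). The 8 genes at 100 FPKM or more in DMSO lie farthest right, and Pck1, G6pc, Slc2a2, Gys2 and Pfkfb4 lie left of the line.

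Transport across the cell membrane held the widest difference among the 35 genes at the minimum FPKM. Slc16a3 encodes MCT4, the lactate exporter of glycolytic cells, and lies on chromosome 11 (mm9, chr11:120809794-120852644 for the locus). It was at 14.3 FPKM in DMSO and at 34.3 in GW3965, 2.40-fold higher, with an interval of 1.06 to 5.43 and p = 0.0363 in the authors' deposited table. The table places it in 1 locus with Csnk1d, a casein kinase gene, which was at 49.6 and 55.9 FPKM, and whether fragments of one were assigned to the other was not tested. Slc16a3 shared no 25-base word with another annotated gene. Slc2a1 (mm9, chr4:118781316-118811406) encodes GLUT1, the broadly expressed glucose carrier, and was at 36.7 FPKM in DMSO and at 51.1 in GW3965, 1.39-fold higher, with an interval of 1.06 to 1.82 and p = 0.0171 in the authors' deposited table. Its log2 ratio of 0.47, on the (FPKM + 1) scale, came next after the 1.21 of Slc16a3. Slc16a1, encoding the lactate and ketone body carrier MCT1, had 22.7 and 22.8 FPKM, the smallest difference of all 35 genes. Slc2a2, which encodes the liver glucose carrier GLUT2, stayed under the minimum in both libraries (0.916 and 0.751). The MCT partner Bsg (basigin), which carries MCT1 and MCT4 to the membrane, was at 591 and 650 FPKM.

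Upstream sequences are shown for genes at either end of the range of ratios at the minimum FPKM, and for Pgk1, which lies further in. The 250 bases before the RefSeq transcription start are printed for Slc16a3 and Slc2a1, which had the highest log2 ratios of (FPKM + 1), for Pgk1, a glycolytic enzyme with the motif on both strands, and for Khk, the lowest of the 35. By FPKM fold alone, Pfkp (1.414) and Hk1 (1.395) stood just above Slc2a1 (1.391), and their windows held no match to the motif marked here. Of the genes between Slc2a1 and Pgk1 in log2 ratio, Aldoa held a match, whereas Pfkp, Hk1, Tpi1, Pdk1 and Pfkl held none. The printed windows are on the plus strand of GRCm38.p6, at chr11:120948817-120949066, chr4:119108495-119108744, chrX:106186850-106187099 and chr5:30921309-30921558. Capitals mark ACGTG, a form of the core of the HIF response element (A or G followed by CGTG), read on either strand. The GCGTG form was neither marked nor counted, so a window without a match may still hold it.
Slc16a3: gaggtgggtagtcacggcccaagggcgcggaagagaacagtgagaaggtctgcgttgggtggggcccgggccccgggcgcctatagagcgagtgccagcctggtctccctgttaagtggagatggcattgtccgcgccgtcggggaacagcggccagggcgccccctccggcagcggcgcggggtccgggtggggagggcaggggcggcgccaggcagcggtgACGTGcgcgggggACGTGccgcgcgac
Slc2a1: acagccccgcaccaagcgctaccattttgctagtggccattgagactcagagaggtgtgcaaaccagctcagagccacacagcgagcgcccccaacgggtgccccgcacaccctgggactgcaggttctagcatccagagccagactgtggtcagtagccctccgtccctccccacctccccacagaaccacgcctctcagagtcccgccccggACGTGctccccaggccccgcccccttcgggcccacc
Pgk1: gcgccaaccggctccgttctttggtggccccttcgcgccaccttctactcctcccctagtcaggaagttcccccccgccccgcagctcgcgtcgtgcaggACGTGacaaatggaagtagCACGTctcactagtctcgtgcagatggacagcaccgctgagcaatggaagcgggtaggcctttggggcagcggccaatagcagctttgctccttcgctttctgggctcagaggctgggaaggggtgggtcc
Khk: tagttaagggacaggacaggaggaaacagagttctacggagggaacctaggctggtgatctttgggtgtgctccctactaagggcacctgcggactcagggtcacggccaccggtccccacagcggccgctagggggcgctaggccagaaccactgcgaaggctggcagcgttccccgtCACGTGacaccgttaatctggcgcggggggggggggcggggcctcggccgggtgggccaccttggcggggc
In Slc16a3 the 2 matches begin 27 and 14 bases before the start, in Slc2a1 the match begins 36 bases before it, and in Pgk1 the matches begin 150 and 131 bases before it. The Khk window holds CACGTG, an E-box that reads as ACGTG on both strands, beginning 71 bases before the start.

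Across the set, ACGTG on either strand was present upstream of 19 of the 39 genes matched in RefSeq, beside 18.49% of all 27025 genes with such windows. A gene counted if any of its windows held the word, and several genes of the set have more than 1 window. Of all 32851 windows, 16.57% held ACGTG. All genes also include unexpressed ones, and neither expression nor the number of windows was matched. ACGTG was present in 7 of the 15 genes in the higher class and in 12 of the other 20 genes at the minimum. CACGTG, which contains ACGTG, was found in 11 of the 39 genes and in 6.86% of all genes. That longer word was present in 1 of the 15 higher genes (Ldha) and in 10 of the other 20, among them Khk, Pcx, Pdk2, Slc16a1, G6pc3 and Fbp2. The DR4 consensus, the spaced direct repeat bound by LXR with RXR and searched without mismatches, had no match in the 39 genes on either strand and one in 0.0148% of all genes. A match is a word in a window and no measure of binding.

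Trapping of hexoses by phosphorylation showed 2 of 3 hexokinase genes higher by 1.2-fold or more in GW3965, against 6.09% of all genes at the minimum. Hk1, the broadly expressed hexokinase (mm9, chr10:61731603-61842656), was at 10.2 FPKM in DMSO and at 14.2 in GW3965, 1.395-fold higher, with an interval of 1.05 to 1.85 and p = 0.0199 in the authors' deposited table. Hk2, the insulin-responsive hexokinase of muscle and fat, was at 11.7 and 14.5 FPKM, with an interval of 0.859 to 1.79. Hk3, a hexokinase gene of myeloid cells, was at 1.23 and 1.34. Gckr, which encodes a regulatory protein of this step, was at 2.18 and 2.02 FPKM. Khk (mm9, chr5:31223929-31233619) encodes ketohexokinase, which starts hepatic fructose breakdown, and had the lowest ratio of the 35 genes at the minimum FPKM, at 41.3 and 30.7 FPKM, 0.743-fold, with an interval of 0.523 to 1.05 and p = 0.0951 in the authors' deposited table. It was the 1 gene of the 35 at least 1.2-fold lower.

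In upper glycolysis, 4 of 6 genes were at least 1.2-fold higher, against 6.09% of all genes at the minimum, and the median log2 ratio was 0.38. Phosphofructokinase, the committed step, had all 3 isoform genes above the minimum. The liver gene Pfkl was at 51.7 FPKM in DMSO and at 67.6 in GW3965, the platelet gene Pfkp at 10.8 and 15.3, and the muscle gene Pfkm at 5.71 and 5.10. Aldoa, encoding the broadly expressed aldolase, was at 309 and 401 FPKM, 1.30-fold higher, with an interval of 0.939 to 1.80. Tpi1, the triose phosphate isomerase gene, was at 373 and 488, 1.31-fold higher. Gpi1, which encodes glucose phosphate isomerase, moved least among the abundant genes at 268 and 296 FPKM. Enzymes that make and remove fructose bisphosphate signals to phosphofructokinase were scarce: Pfkfb1, the liver form, was at 2.65 and 3.50 FPKM, Pfkfb2, the heart form, at 2.60 and 2.41, Pfkfb3, the inducible form, at 5.18 and 5.76, and Pfkfb4 at 0.586 and 0.720.

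Lower glycolysis carried most of the transcript mass of the set, 3338 FPKM in DMSO and 4112 in GW3965, a ratio of 1.23. Gapdh, whose enzyme reduces NAD at the first energy-yielding step, was the highest gene at 1797 and 2222 FPKM, followed by Eno1, encoding enolase, at 916 and 1103. Pgk1, the phosphoglycerate kinase gene, was at 381 and 495 FPKM, 1.30-fold higher, with an interval of 0.952 to 1.77 and p = 0.0991 in the authors' deposited table. Pgam1, the phosphoglycerate mutase gene, was at 158 and 197, with an interval of 0.959 to 1.62. Pklr, the liver pyruvate kinase gene, was at 86.0 and 95.7 FPKM and under 1.2-fold. The broadly expressed pyruvate kinase gene, listed as Pkm2 and not part of the set, was at 444 and 547.

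Of the 8 genes at 100 FPKM or more in DMSO, 7 were at least 1.2-fold higher, all but Gpi1, and the 8 ratios lay between 1.11 and 1.31. Among all 776 genes with a mean of 100 FPKM or more, 10.2% were at least 1.2-fold higher, and their median log2 ratio was 0.03. These 8 genes had no interval that left out a ratio of 1. Housekeeping enzymes of this kind have processed copies in the mouse genome: 55.2% of the 25-base words of Pgk1, 29.4% of those of Eno1 and 29.0% of those of Gapdh occurred in other annotated genes, so their levels depend on how shared fragments were assigned. For Gapdh, the 58 genes that held at least 10% of its words summed to 12.3 FPKM in DMSO, 0.685% of the Gapdh level.

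At the exit from glycolysis, Ldha, the lactate dehydrogenase A gene, was at 796 FPKM in DMSO and at 981 in GW3965, 1.23-fold higher. Pdk1, whose kinase shuts pyruvate dehydrogenase, was at 14.2 and 18.9 FPKM, 1.33-fold higher, with an interval of 0.790 to 2.23. Its liver and heart relative Pdk2 was at 3.42 and 3.05. Pdha1, a catalytic subunit gene of pyruvate dehydrogenase, was at 47.0 and 50.02.

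**Figure D2:**
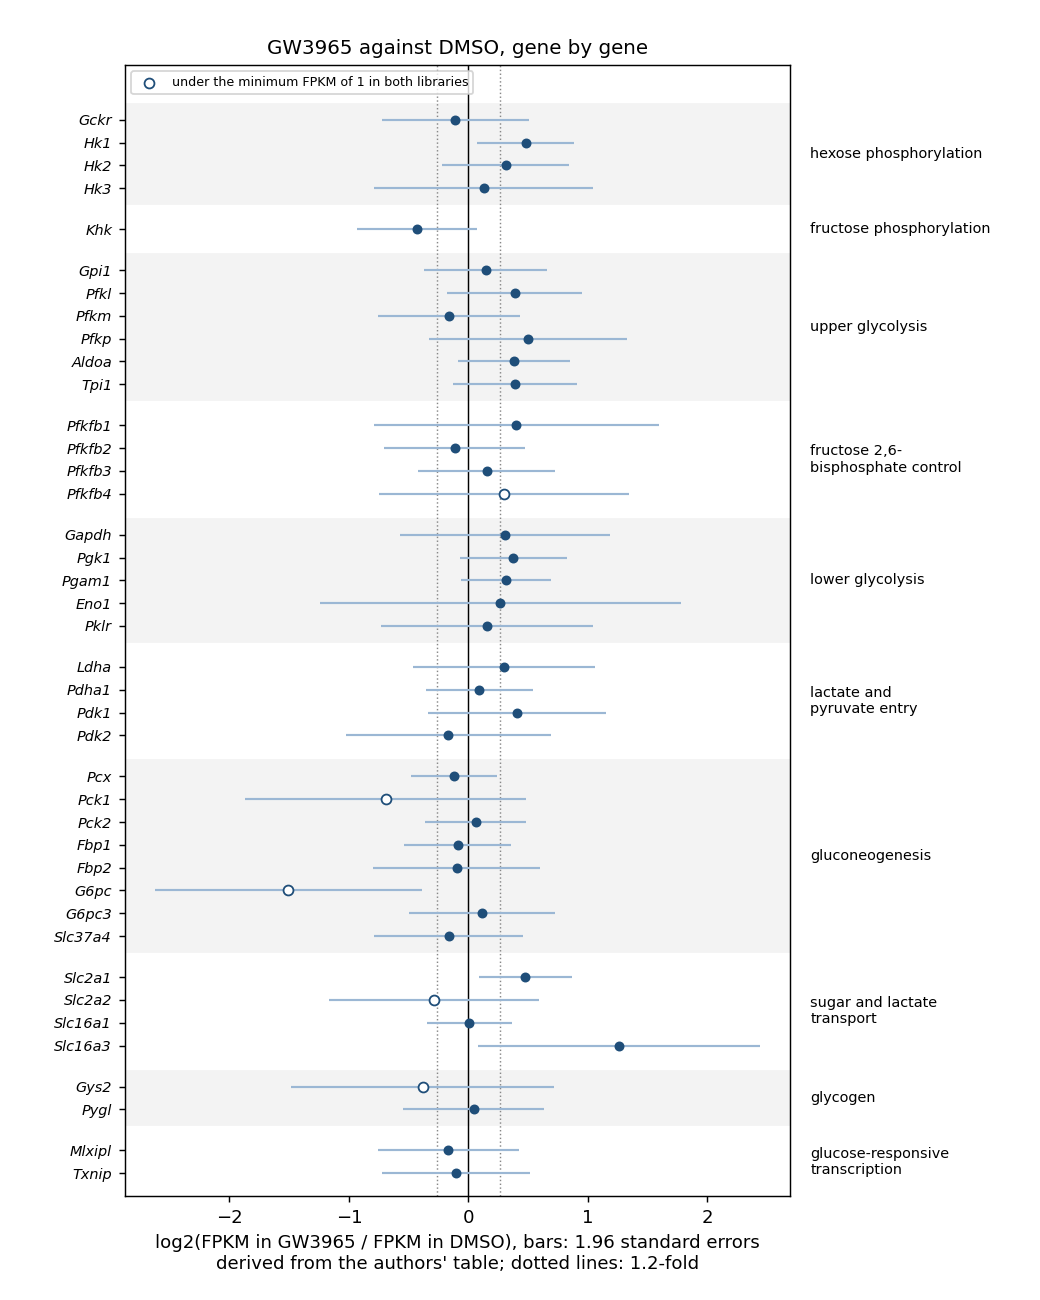
Log2 of the FPKM ratio of GW3965 to DMSO for each of the 40 genes, grouped by role, with bars that span the 95% interval derived from the authors' table; open points are genes under the minimum FPKM and dotted lines mark 1.2-fold. The bars of Hk1, Slc2a1, Slc16a3 and G6pc leave out 0, and those of the other 36 genes span it.

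Gluconeogenic genes at the minimum FPKM stayed close to their DMSO level, whereas G6pc and Pck1 lay under that minimum and were lower in GW3965. Of 8, 6 were at the minimum FPKM, and their median log2 ratio was -0.08. None of the 6 was 1.2-fold higher or lower, but 86.2% of all genes at the minimum also lay within 1.2-fold. Pcx, encoding pyruvate carboxylase, the entry from pyruvate, was at 28.5 FPKM in DMSO and at 26.2 in GW3965. Pck2, the mitochondrial PEPCK gene, was at 23.8 and 24.8, whereas Pck1, the cytosolic and hormone-regulated PEPCK gene, was at 0.123 and 0.0762. Fbp1, the liver fructose bisphosphatase gene, was at 14.6 and 13.7 FPKM, and its muscle relative Fbp2 at 2.03 and 1.89. Slc37a4, the carrier of glucose 6-phosphate into the endoplasmic reticulum, was at 3.65 and 3.26, and G6pc3, a broadly expressed glucose 6-phosphatase gene, at 8.89 and 9.62.

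G6pc (mm9, chr11:101228875-101239217), the glucose 6-phosphatase gene that lets liver release glucose, was at 0.224 FPKM in DMSO and at 0.0789 in GW3965. These values correspond to about 32 and 14 fragments, and their FPKM ratio of 0.352 had an exact 95% interval of 0.174 to 0.679 that covers counting error only. The authors' deposited table gave p = 0.00821 and q = 0.679 for it. Both levels were far under the minimum, so the gene is in none of the counts by fold. Pck1 rested on about 20.1 and 15.4 fragments.

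Among the glycogen genes of the set, only Pygl reached the minimum FPKM, and it differed little. Pygl, the liver glycogen phosphorylase gene, was at 58.5 FPKM in DMSO and at 60.3 in GW3965. Gys2, the liver glycogen synthase gene, was at 0.133 and 0.102, about 21 and 20 fragments, with a ratio of 0.767 and an exact interval of 0.394 to 1.49. Mlxipl, encoding ChREBP, was at 46.6 and 41.5 FPKM, with an interval of 0.591 to 1.34. Txnip, a ChREBP target that limits glucose uptake, was at 26.6 and 24.7.

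The contrast of liver with fetal or broad isoforms was wide within each library and nearly the same in both. Among 8 enzyme and carrier families, the liver isoform held under 50% of the summed FPKM in 5 and over 50% in 3, and in 3 of the 5 it held under 5% in DMSO. GLUT2 made up 2.42% in DMSO and 1.44% in GW3965 of the sum of GLUT1 to GLUT4, G6pc 2.44% and 0.813% of the glucose 6-phosphatases, and Gys2 3.24% and 2.23% of the glycogen synthases. Pklr held 16.2% and 14.9% of the pyruvate kinases. Liver isoforms led for phosphofructokinase, with Pfkl at 75.8% and 76.8%, for fructose bisphosphatase, with Fbp1 at 87.8% in both, and for glycogen phosphorylase, with Pygl at 86.8% and 87.1%.

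Between libraries, the liver share was lower in GW3965 in 4 of the 8 families. In 3 of these the liver isoform (G6pc, Slc2a2 and Gys2) was under the minimum FPKM, and the other was Pklr. The widest move was 4.21 percentage points, for Pfkfb1. At the minimum FPKM, the 5 liver isoforms had a median log2 ratio of 0.15 and the 10 other isoforms one of 0.12. In bulk RNA, fewer cells of a type and less RNA per cell cannot be told apart, so a low share of a liver isoform does not separate hepatocytes that lost it from other cells that lack it.

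**Figure D3:**
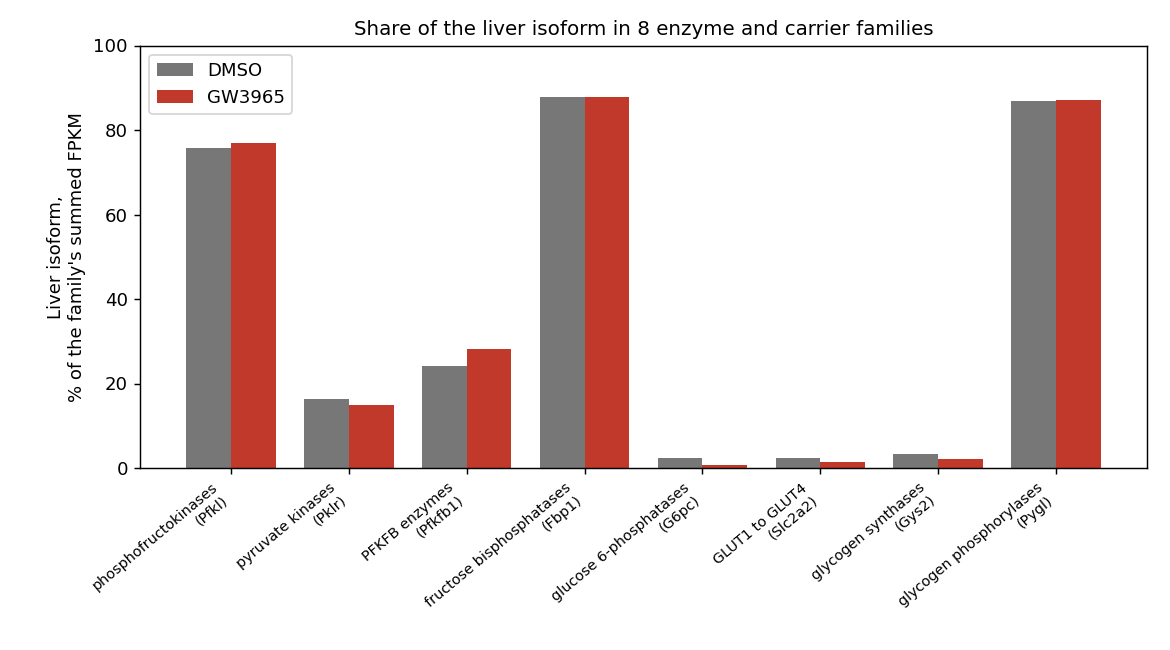
Percent of each family's summed FPKM held by the liver isoform (named under each family) in the DMSO and GW3965 libraries, with 1 library per bar and no error bar. Pfkl, Fbp1 and Pygl stand above 75% and the other 5 liver isoforms under 30%, with paired bars at most 4.21 points apart.

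Pathway genes outside the set were described from a list of 91 symbols, of which 90 were in the table and 64 at the minimum FPKM. Their median log2 ratio was 0.03. Of the 64, 5 were higher by 1.2-fold or more, against 6.09% of all genes at the minimum. Another 4 were lower by as much, against 7.71%, so both counts lay near the shares over all genes. None reached 1.5-fold, against 1.02% of all genes higher and 1.33% lower. The 5 higher genes were Pkm2 (444 and 547 FPKM), 3 genes of the pyruvate dehydrogenase complex and its phosphatase, Dlat (25.4 and 32.2), Pdhx (12.1 and 15.4) and Pdp2 (3.66 and 4.93), and the gluconeogenic transcription factor gene Foxo1 (4.57 and 5.73). The 4 lower genes were Brp44, a subunit gene of the mitochondrial pyruvate carrier (34.2 and 25.7), Gpd1, the cytosolic glycerol phosphate dehydrogenase gene (34.8 and 27.0), and the sugar carrier genes Slc2a8 and Slc2a9, with log2 ratios of -0.30 and -0.32.

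A list of 25 HIF response genes was set beside these values, since it holds 14 of the 40 genes. This list, like the others, was chosen with earlier results of these data known. All 23 HIF response genes at the minimum FPKM had a log2 ratio above 0, beside 6237 of all 11796 genes, and their median was 0.33. Of these 23, 13 are genes of the glucose set already described above. Of the 10 at the minimum that are not in the glucose set, 7 were higher by 1.2-fold or more, against 6.09% of all genes at the minimum. By 1.5-fold or more, 2 of these 10 were higher, against 1.02%, and the median of the 10 was 0.32. Vegfa, the angiogenic growth factor gene, was at 35.9 FPKM in DMSO and at 61.7 in GW3965, and its test failed in the authors' deposited table. Ankrd37, an ankyrin repeat gene, was at 2.96 and 5.93, and Bnip3, a mitophagy gene, at 34.1 and 49.5. Egln3, which encodes a HIF prolyl hydroxylase, had a log2 ratio of 0.39. Car9, a carbonic anhydrase gene commonly used as a hypoxia marker, lay under the minimum and on the other side, at 0.775 and 0.264 FPKM. Oxygen, cell density and culture time are not given in the labels, and their part in these ratios was not tested.

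A list of 19 ChREBP response genes was divided, with a median log2 ratio of 0.15 over the 16 at the minimum FPKM and of -0.08 over all 19. The 4 of the glucose set at the minimum FPKM (Txnip, Pklr, Khk and Fbp1) had a median log2 ratio of -0.09 and 1 of them, Pklr, was above 0. The 12 others at the minimum had a median of 0.24 (0.44 over the 8 alone in their locus). Of these 12, 3 were at least 1.5-fold higher, against 1.02% of all genes at the minimum. They were Fasn, the fatty acid synthase gene, with a log2 ratio of 1.31, Pnpla3, a lipid droplet lipase gene, with 0.79, and Elovl6, a fatty acid elongase gene, with 0.60. Those 3 are also textbook targets of LXR or SREBP-1c, so the list does not isolate ChREBP. Of the 3, Pnpla3 reached the minimum FPKM only in GW3965, at 0.360 FPKM in DMSO and at 1.35 in GW3965. Of the 12, 8 were above 0 and 4 below, among them Rgs16 with a log2 ratio of -0.40 and Gpd1 with -0.36.

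Endothelial markers and most stellate cell markers were also higher in the GW3965 library. All 5 endothelial markers were above 0 in log2 ratio, with a median of 0.27, and their sum was 121 FPKM in DMSO and 144 in GW3965. Pecam1, at 35.1 and 42.6 FPKM, holds this median, and its test failed in the authors' deposited table. Of the 5 stellate cell and fibroblast markers at the minimum, 4 were above 0, with a median of 0.21 and sums over all 6 of 18.2 and 22.4. Macrophage markers were split, 3 of 6 above 0 with a median of -0.03, and summed to 98.3 and 116, most of it Cd68 (74.9 and 93.9). Ductal markers summed to 4150 and 3394, nearly all of it Spp1, with Krt7 and Epcam near 0, and no erythroid marker reached the minimum. The 8 hepatocyte markers without albumin summed to 1244 FPKM in both libraries, but single markers differed: of the 7 at the minimum, 4 were above 0 with a median of 0.03, Cps1 was higher by 1.2-fold or more, and Serpina1a and Hnf4a were lower by as much, with log2 ratios of -0.46 and -0.39. Endothelial and stellate cells use GLUT1 and broad glycolytic isoforms, and the part of these cells in the ratios of Slc2a1, Hk1 and the glycolytic enzymes was not tested.

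**Figure D4:**
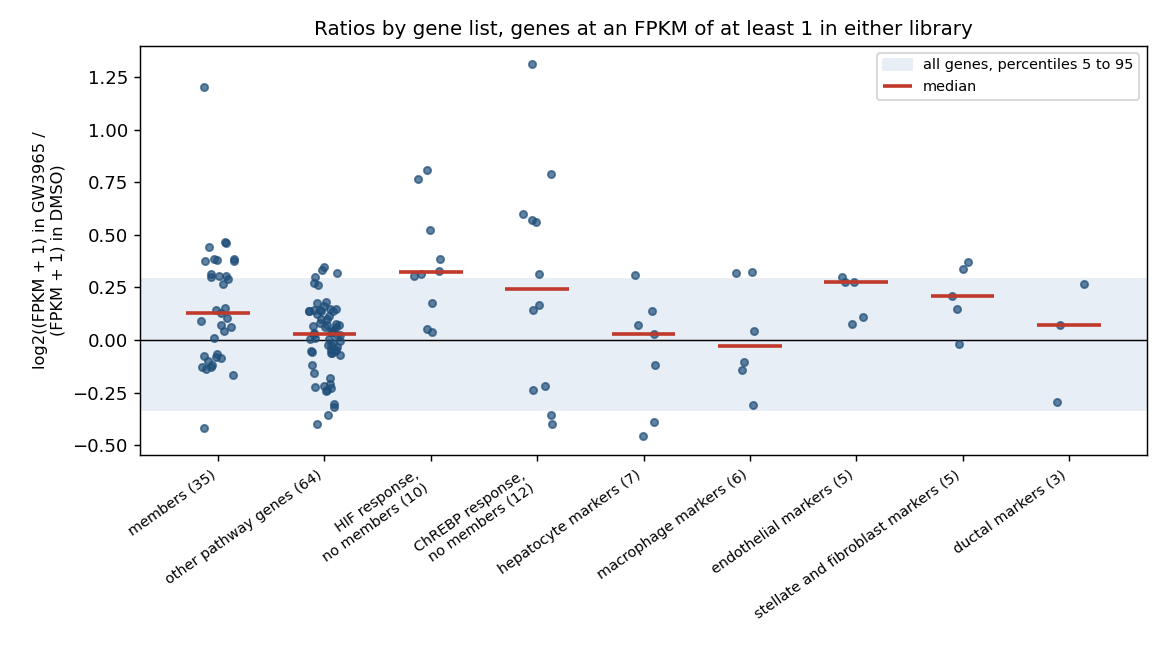
Log2 ratio of (FPKM + 1) for each gene at the minimum FPKM, by list, with the number of genes in brackets; each point is 1 gene, red lines are medians and the band spans percentiles 5 to 95 of all genes (-0.33 to 0.29). The HIF response genes outside the set lie wholly above 0 with a median of 0.32, as do the endothelial markers with 0.27, while the other pathway genes centre near 0.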

How the data were processed

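RNA libraries of 1 DMSO and 1 GW3965 culture were made from total RNA (TruSeq RNA kit, as the labels' protocols state). The submitters' processing notes name CASAVA, TopHat2 2.0.6, Cufflinks 2.0.2, Cuffdiff and the builds mm9 and NCBIM37. Their settings, the use of strand and the scaling between libraries are not given in the sources used. The authors deposited FPKM, which take account of transcript length and library size. The deposited table also holds, per the file headers, p-values, q-values and a test statistic, which is a score.

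The table heads its columns DMSO and GL. GL was read as GW3965, the other sample of the labels, and that reading is not certain. Ratios were taken of FPKM + 1, GW3965 over DMSO, on the log2 scale, for genes that reached an FPKM of 1 in at least 1 library. The main size threshold was 1.5-fold and a second one was 1.2-fold. The standard error is the log2 fold over the score, in size, and 95% intervals assume normal errors on the log2 scale. Genes marked for too many fragments (7, listed at 0 in GW3965) were left out. Genes of the set with an FPKM of at least 1 were named with both values, the rest where they mark an isoform or control point. The set and the other lists were chosen with earlier results of these data known, and some pathway genes are not reported here. With 1 library per group no test was computed. The count past 1.5-fold was tried on simulated data whose noise was smaller than the standard errors of these genes. Counts past 1.2-fold were not simulated, so the simulation does not bear on them.

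Depth was estimated from the steps of 1536 low genes, whose most frequent DMSO to GW3965 step ratio was 1.243, with an absolute scale from 31 genes at an assumed fragment length of 200 bases. Gene positions come from the table (mm9), with 1 added to starts. Promoter sequences are RefSeq's in GRCm38.p6, another build, and matched 39 of the 40 genes by symbol. Shared 25-base words came from GENCODE M21 transcripts. Alternatives were pseudocounts of 0.1 and 5, minimum FPKM values of 0 and 5, a 1.2-fold and a 2-fold threshold, another scaling or centring and, chosen after seeing the data, use of genes alone in their locus. Python 3.11.15, pandas 2.3.3 and scipy 1.17.1 were used.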

Additional observations from a re-analysis of the deposited data

How the results depend on the processing

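No paired analysis was possible because only 1 library stands for each group. With a 1.2-fold threshold in place of 1.5-fold, 15 genes of the set were higher and 1 lower, and 5 and 4 of the other pathway genes. With only genes alone in their locus (17 of the set), 0 were 1.5-fold higher, since Slc16a3 shares its locus, 8 were 1.2-fold higher, and the ChREBP list medians were 0.314 for the whole list and 0.438 without the set. The median of the set was 0.0823 with a pseudocount of 5 and 0.21 with a minimum FPKM of 5. The ChREBP list median was -0.0848 with no minimum, which turns its direction. Of the other pathway genes, 7 were 1.2-fold lower with a pseudocount of 0.1, 2 with a pseudocount of 5 and 2 with a minimum of 5, and 2 were 1.2-fold higher with a pseudocount of 5. The ratios of all 35 genes of the set moved by less than their standard error under pseudocounts of 0.1 and 5 and under scaling to the same sum. Depth limits G6pc, Gys2 and Pck1, each at about 32 fragments or fewer in DMSO.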

Other observations

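The surroundings of Slc16a3 were looked at after its ratio was seen. Within 250 kb of its locus on chromosome 11 the table holds 36 genes, 13 of them listed at 0 in both libraries and 16 at the minimum FPKM. Among these 16, 2 were at least 1.5-fold higher, Slc16a3 itself and Fasn, the fatty acid synthase gene, at 47.7 FPKM in DMSO and at 120.1 in GW3965. The locus of Fasn ends 124301 bases before that of Slc16a3 begins. The other 14 had log2 ratios from -0.25 to 0.35 and none was 1.5-fold lower. Csnk1d, which the table places in the same locus as Slc16a3, had 0.17. Whether the nearness of the pair bears on either ratio was not tested.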
